A study of Arabidopsis thaliana with 12 samples.

Results

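The genes described here are 37 named Arabidopsis thaliana genes with bright array features. Their mean intensities under both light treatments of the study lay within a set ratio of each other. They were chosen from 3439 features, of which 692 were paired with exactly 1 gene in the platform annotation. The rule asked for a mean intensity of at least 1 over all 12 samples and for a ratio of the group means, PSII light with DCMU over PSI light, between 0.8 and 1/0.8 (the ratio window). Of the 692 named features, 145 reached that mean and 45 of these lay within the ratio. Photosystem, antenna, chlorophyll synthesis, pentatricopeptide repeat (PPR), mTERF and ribosomal protein genes were left out by the rule, which removed 8 of the 45. Because the deposited intensities chose the members, their levels, group ratios and the intervals of these are given as descriptions, and no test of the group difference in a member is read as a result. An intensity belongs to 1 feature and is no measure of the amount of RNA of a gene against another gene, so "bright" means the feature and not an abundant transcript.

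Total RNA came from wild-type plants of the ecotype C24, in 2 groups of 6 samples each. For the group 15-PSI, plants were grown in light specific for photosystem I (PSI light) without DCMU. For the group 15-PSII_DCMU, they were grown in light specific for photosystem II (PSII light) and also received DCMU, a herbicide that blocks electron transfer out of photosystem II. Light and DCMU differed together between the groups and cannot be told apart, and the labels give no age, tissue or time of treatment. Of 7 markers of green tissue 3 were measured by a named feature (PSAN, PSBW and PSBY), all with a mean intensity of at least 1, and none of the markers of root and hypocotyl or of seed was measured.

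In the thylakoid membrane plastoquinone carries electrons from photosystem II towards photosystem I, and its redox state is one of the signals by which the chloroplast acts on nuclear gene expression. Most genes of a leaf cell serve functions outside the photosystems, such as nitrogen and sugar metabolism, protein turnover and signalling. Transcripts whose level holds between light treatments are the usual baseline against which responding transcripts are read.

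Consecutive samples of a group (1 with 2, 3 with 4, 5 with 6) deviated together from their group mean over all features. Such partner samples were averaged and counted as 1 replicate, which gives n = 3 in each group. Whether these came from separate plants is not stated in the labels, so p-values set a difference only against the spread of these samples, and that spread may be technical. Precision is limited by the small number of arrays. The median intensity of a sample was 0.542 to 0.584 in the PSI group and 0.632 to 0.687 in the PSII_DCMU group, while sample means were 1.09 to 1.13.

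Over the 37 members the ratio of the group means ran from 0.80 to 1.23 with a median of 1.01, and it was above 1 in 19 members and under 1 in 18. In 18 members it lay within 0.1 of 1. A ratio inside the window was found for 1070 of all 3439 features, or 31.1%. In these bulk samples, fewer cells of a type and less RNA per cell cannot be told apart. Mean intensities of the members ran from 1.05 to 44.2. They were under 1.5 in 26 members, between 1.5 and 3 in 8 and above 3 in AT3G09850, AT4G17070 and CYN.

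**Figure D1:**
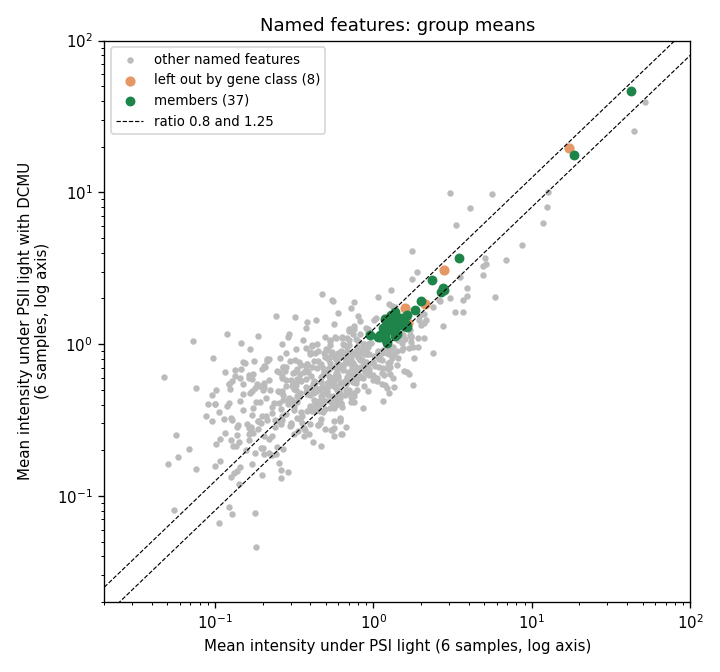
Mean intensity of named features under PSI light (x axis) and under PSII light with DCMU (y axis), each over 6 samples, on log axes. The 37 members (green) lie between the dashed lines of ratio 0.8 and 1/0.8 at a mean of at least 1, beside the 8 genes left out by class (orange). The other named features are grey, and 39 with a mean under 0.02 in a group fall outside the axes.

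At the edges of the rule, AT4G27250 (mean 1.05) and AT3G52070 (1.09) were the members nearest to the lowest mean, and AT1G72640 and AT1G04420 (both 0.99) just missed it. AT2G44760 (ratio 0.80) and AT4G13680 (0.81) lay just above the lower ratio, and PPDK (0.7997) and AT2G47360 (0.79) just under it. AT2G03200 (1.23) and AT4G27250 (1.21) lay nearest to the upper ratio from inside, and AT2G35450 (1.28) and AT2G19870 (1.30) from outside. On either side of an edge these neighbours differed by little in the value the rule used.

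The 8 genes left out were the photosystem genes PSBW (ratio 1.15) and PSAN (1.09), AT1G74470, the geranylgeranyl reductase of chlorophyll synthesis (0.87), HEMA3, a glutamyl-tRNA reductase of the tetrapyrrole pathway (1.04), AT1G62150 of the mTERF family (0.84), and the PPR genes OTP70 (1.15), AT4G21170 (1.09) and AT3G49740 (1.06). HEMA3 acts before the branch to chlorophyll, and keeping it would make 38 members.

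Roles below are background from the usual descriptions of these loci, since the gene tables used here pair identifiers and symbols only. A role is given for 23 of the 37 members.

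Of 9 members for metabolic enzymes, 4 had a ratio above 1 and 5 under 1, from 0.84 to 1.21. CYN encodes cyanase, which breaks down cyanate with bicarbonate. Its 6 samples ran from 2.85 to 4.34 with a median of 3.44 under PSI light and from 3.24 to 4.50 with a median of 3.56 under PSII light with DCMU. The groups overlapped over most of their range, and the means were 3.48 ± 0.43 and 3.68 ± 0.408 (SD, n = 3), a ratio of 1.06.

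ATSPS4F encodes a sucrose phosphate synthase, which acts in sucrose synthesis in the cytosol. It had the ratio nearest to 1 of all members (0.99, from 1.5 ± 0.371 and 1.49 ± 0.196, SD, n = 3). Its samples nevertheless ran from 1.10 to 1.93 under PSI light and from 1.31 to 1.73 under PSII light with DCMU, with medians of 1.54 and 1.43. Under PSI light, samples 5 and 6 were low (1.12 and 1.10) and samples 3 and 4 high (1.77 and 1.93), while under PSII light with DCMU samples 5 and 6 were the highest (1.67 and 1.73). The ratio within the third pair of samples was therefore 1.53 and within the second 0.71.

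AT5G10920 encodes argininosuccinate lyase, the last enzyme of arginine synthesis. Its values varied most of all members over the 12 samples, with a coefficient of variation (CV, the SD as a percentage of the mean) of 29.5%. They ran from 0.61 to 1.72 with a median of 1.28 under PSI light and from 0.76 to 1.28 with a median of 1.02 under PSII light with DCMU. Samples 3 and 4 were the lowest in both groups, at 0.86 and 0.61 under PSI light and at 0.875 and 0.76 under PSII light with DCMU. Its ratio of 0.85 became 1.01 without PSI replicate 1 and 0.71 without PSI replicate 2.

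AT4G29890, a choline monooxygenase-like gene, had a ratio of 1.12, with 2.35 ± 0.788 under PSI light and 2.64 ± 0.167 under PSII light with DCMU (SD, n = 3). Samples 3 and 4 under PSI light stood at 3.25 and 3.19, above all other samples of the gene, and samples 5 and 6 at 1.63 and 1.71, below them. The 6 samples under PSII light with DCMU kept between 2.40 and 2.82.

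The rhodanese-like genes AT4G27700 and AT4G24750, named for a domain of sulfur transfer enzymes, had ratios of 0.94 and 1.10. AT4G24750 was at 0.549 and 0.932 in samples 3 and 4 under PSI light and between 1.24 and 1.43 in the other 4, and it was lowest in samples 3 and 4 under PSII light with DCMU too (1.0 and 1.17). AT1G01500, of the erythronate-4-phosphate dehydrogenase family, had a ratio of 0.97, with 1.18 ± 0.204 and 1.14 ± 0.173 (SD, n = 3). Its samples ran from 0.821 to 1.36 with a median of 1.23 under PSI light and from 0.92 to 1.33 with a median of 1.20 under PSII light with DCMU, so the groups overlapped.

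The other 2 enzymes differed from these in that their groups did not overlap. AT1G50390, of the pfkB family of sugar kinases, ran from 1.41 to 1.89 with a median of 1.57 under PSI light and from 1.30 to 1.39 with a median of 1.35 under PSII light with DCMU. AT4G27250, a gene for a reductase of the NAD(P)-binding Rossmann-fold superfamily, ran from 0.815 to 1.03 with a median of 0.968 and from 1.08 to 1.22 with a median of 1.15. Every sample of AT1G50390 was thus higher under PSI light and every sample of AT4G27250 higher under PSII light with DCMU, though the ratios of 0.84 and 1.21 met the rule.

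Both members for glycosyltransferases, enzymes that attach sugars, had ratios above 1. AT1G35510, of the O-fucosyltransferase family, ran from 0.693 to 1.86 with a median of 1.55 under PSI light and from 1.43 to 1.62 with a median of 1.52 under PSII light with DCMU. Samples 5 and 6 under PSI light (0.693 and 0.746) were the only low ones, and without them its ratio of 1.13 became 0.91. AT1G73740, a UDP-glycosyltransferase gene, had 1.28 ± 0.432 under PSI light and 1.5 ± 0.031 under PSII light with DCMU (SD, n = 3). Its PSI samples 1 and 2 stood at 1.96 and 1.59 and the other 4 between 0.901 and 1.15, and without the first 2 its ratio of 1.17 became 1.45.

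Of 3 members for protein kinases, which pass on signals by phosphorylation, AT3G57120 had a ratio of 1.20, AT2G39360 of 0.94 and AT2G40980 of 0.85. AT2G39360 was high in samples 1 and 2 of both groups, at 2.33 and 1.68 under PSI light and at 1.47 and 1.62 under PSII light with DCMU, against 1.06 to 1.40 in the other 8 samples. AT2G40980 was high in samples 5 and 6 under PSI light (3.66 and 3.71) and lay between 1.94 and 2.65 in all others.

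AT4G17070, a peptidyl-prolyl isomerase gene of the kind that helps proteins fold, held closely over the samples. It ran from 16.4 to 21.4 with a median of 18.1 under PSI light and from 16.1 to 20.6 with a median of 17.3 under PSII light with DCMU, a ratio of 0.95 and a CV of 9.84% over the 12 samples. AT2G03200, an aspartyl protease gene, had the highest ratio of the members, 1.23, with 1.18 ± 0.181 and 1.45 ± 0.025 (SD, n = 3). Its 3 replicates under PSII light with DCMU all lay above those under PSI light.

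Among 7 members for proteins with repeat, G-patch or other domains, the ratio ran from 0.89 to 1.10. AT3G09850, with a G-patch domain as found in RNA-binding proteins, ran from 36.9 to 47.0 with a median of 42.0 under PSI light and from 34.4 to 57.1 with a median of 46.9 under PSII light with DCMU. The extremes of the second group were the partner samples 5 and 6, which differed 1.66-fold. AT1G51350, with armadillo repeats that bind other proteins, was high in samples 3 and 4 under PSI light (2.89 and 2.39) and lay between 1.40 and 1.84 in the other 10 samples, for a ratio of 0.91.

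AT4G16490, also with armadillo repeats, had a ratio of 0.89, with 1.2 ± 0.059 and 1.07 ± 0.113 (SD, n = 3). AT2G03390, with a uvrB/uvrC motif, had 1.11 ± 0.036 and 1.14 ± 0.152 (SD, n = 3). Its samples ran from 0.945 to 1.27 with a median of 1.12 under PSI light and from 0.904 to 1.27 with a median of 1.20 under PSII light with DCMU. The groups of both genes overlapped.

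AT3G26580, with tetratricopeptide repeats that bind other proteins, had 2.0 ± 0.537 and 1.93 ± 0.204 (SD, n = 3). Its samples ran from 1.46 to 3.06 with a median of 1.88 under PSI light and from 1.74 to 2.17 with a median of 1.89 under PSII light with DCMU, and its highest value was that of sample 1 under PSI light. AT4G31930, of a mitochondrial glycoprotein family, had 1.33 ± 0.212 and 1.4 ± 0.064 (SD, n = 3). Its samples ran from 1.08 to 1.57 with a median of 1.39 under PSI light, where samples 1 and 2 were low, and from 1.27 to 1.48 with a median of 1.41 under PSII light with DCMU. In these 2 genes the groups overlapped too.

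AT2G46300, of a family of hydroxyproline-rich glycoproteins, had a ratio of 0.95, with medians of 1.54 in both groups. Under PSI light its samples 3 and 4 stood at 2.78 and 0.933, the highest and the lowest of the 12. They are partner samples, nearly alike over all features, and differed 2.98-fold here, the widest gap between partners in any member. Partners differed by more than 1.5-fold in 3 members (AT2G46300, AT4G24750 and AT3G09850) and by more than 1/0.8-fold in 13.

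The 14 members with no role given had ratios from 0.80 to 1.19 and means from 1.09 to 2.54, 8 of them above a ratio of 1 and 6 under it. AT4G08630 had a ratio of 1.01 and ran from 0.933 to 1.24 with a median of 1.12 under PSI light and from 0.972 to 1.24 with a median of 1.16 under PSII light with DCMU. AT5G40070 had a ratio of 1.02 and ran from 0.846 to 1.55 with a median of 1.32 and from 1.12 to 1.36 with a median of 1.26 in the same order. Its samples 1 and 2 under PSI light were the only ones under 1, while the groups of AT4G08630 covered nearly the same range. AT3G52070 (ratio 1.04) varied least of all members over the 12 samples (CV 7.38%), from 0.918 to 1.21 with a median of 1.07 under PSI light and from 1.01 to 1.17 with a median of 1.12 under PSII light with DCMU. AT4G13680 (0.81), AT1G13990 (0.82), AT2G02590 (0.82), AT1G07460 (0.82) and AT2G26680 (0.85) were at the low end, after AT2G44760. The groups of AT2G02590 did not overlap, with samples from 1.22 to 1.49 under PSI light and from 1.04 to 1.20 under PSII light with DCMU. AT1G50770 (1.19), AT3G11150 (1.17), AT5G06790 (1.06), AT1G01730 (1.05) and AT1G50880 (1.04) were above 1. AT1G13990 ran from 2.47 to 2.95 with a median of 2.64 under PSI light and from 2.01 to 2.48 with a median of 2.18 under PSII light with DCMU, so that the groups met at their edges. AT3G11150 ran from 0.927 to 1.55 with a median of 1.20 and from 1.23 to 1.54 with a median of 1.45, and samples 1 and 2 were the lowest in both groups. AT5G06790 ran from 1.16 to 1.63 with a median of 1.251 and from 1.32 to 1.56 with a median of 1.35, and sample 1 was the highest in both groups. In AT4G13680 the lower ratio went with samples 1 and 2 under PSI light (3.89 and 3.56), since all other samples lay between 2.18 and 2.51. AT1G01730 was high in samples 5 and 6 under PSI light (1.65 and 1.75) and lay between 0.977 and 1.46 in the rest.

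**Figure D2:**
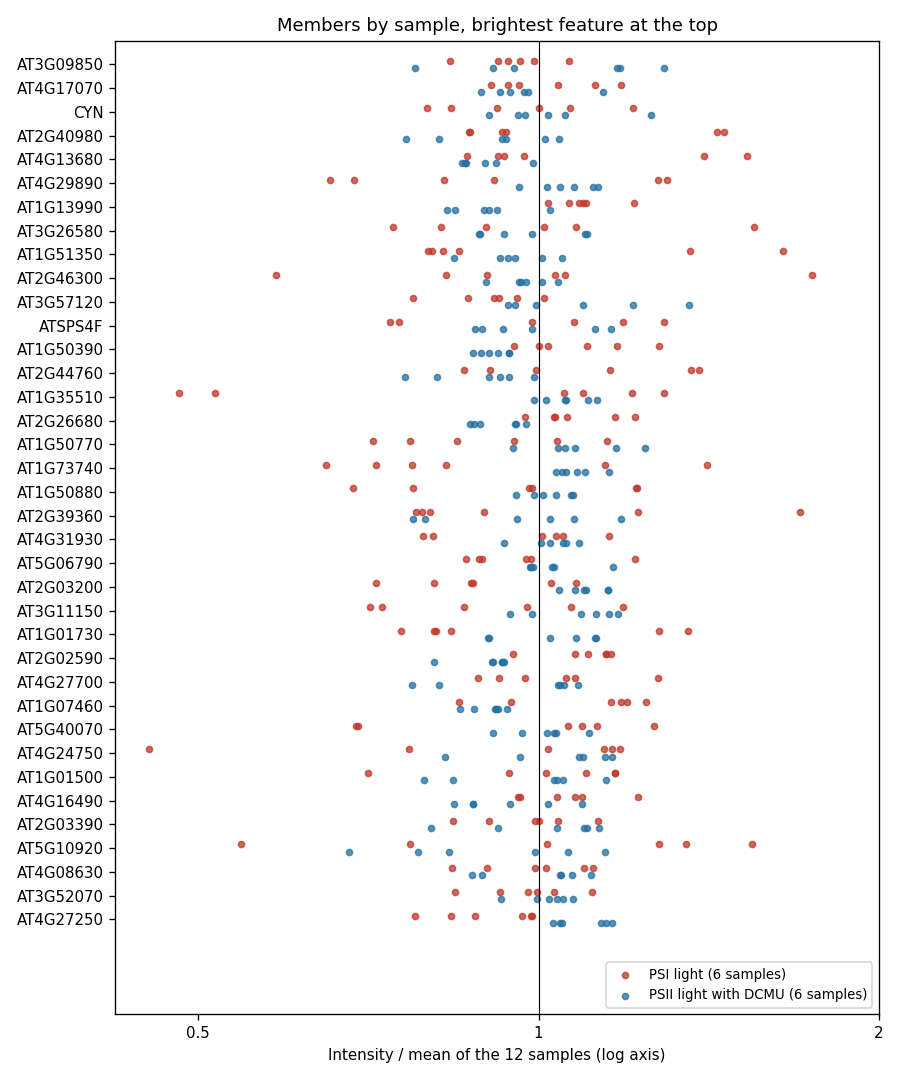
Intensity of each member in each of the 12 samples, divided by the gene's mean over the 12 (x axis, log scale), with PSI light in red and PSII light with DCMU in blue and the brightest feature at the top. The red points scatter more widely than the blue in most rows, as in AT1G35510 (0.693 to 1.86 against 1.43 to 1.62 in intensity).

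The spread between replicates, which the rule did not use, was wider under PSI light. The CV over 3 replicates had a median of 16.0% under PSI light and 7.32% under PSII light with DCMU among the members, and it was larger under PSI light in 29 of 37 (78.4%). Over all 3439 features the medians were 17.1% and 9.09%, and the CV was larger under PSI light in 72.8%. Among the 100 named features with a mean of at least 1 outside the ratio window it was larger under PSI light in 63%. The wider spread under PSI light was therefore shared with the array at large and is not particular to the members. In 14 members the highest and the lowest PSI replicate differed by more than 1.5-fold (37.8%, against 35.4% of all features and 28% of those 100). In 1 member, AT5G10920, the replicates under PSII light with DCMU did (2.7%, against 6.86% of all features). The PSI replicate farthest from the other 2 was replicate 1 in 14 members (37.8%, against 31.4% of all features). It was replicate 2 in 8 (21.6%, against 33.8%) and replicate 3 in 15 (40.5%, against 34.8%). With both groups pooled, the median CV of the replicates around their group mean was 14.3% in the members, against 11.4% in the 100 named features of the same brightness outside the ratio window and 14.5% over all features. Those 100 were not alike, with a median of 18.6% where the ratio lay above the window and 10.3% where it lay under it. The median spread of the members was thus near that of all features, as a description without a test.

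**Figure D3:**
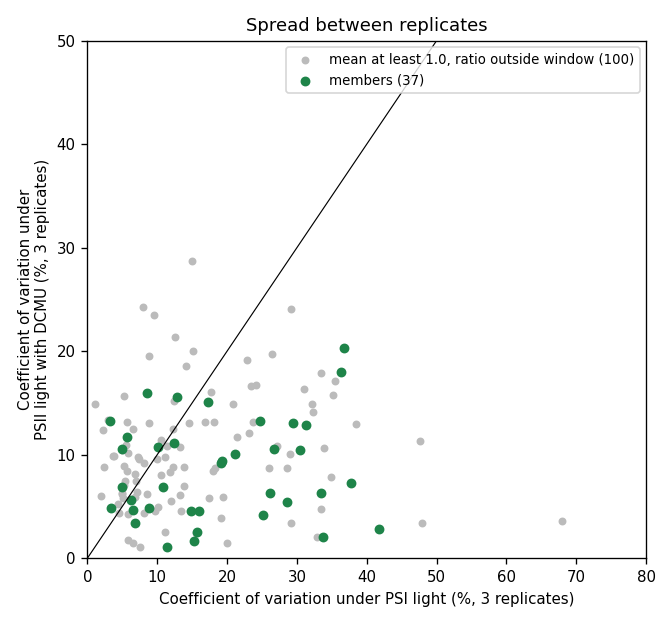
CV over 3 replicates under PSI light (x axis, %) and under PSII light with DCMU (y axis, %) of the 37 members (green) and of the 100 named features with a mean of at least 1 and a ratio outside the window (grey). The line marks equal CV, and 29 of the 37 members lie to the right of it.

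How closely these replicates hold each ratio was read from the 95% interval of a limma fit over all features (log2 intensities, geometric means, n = 3). The interval lay inside the ratio window in 3 of the 37 members, or 8.11%, while it did so in 248 of all features, or 7.21%. Among the 1070 features with a ratio inside the window it did so in 101 (9.44%), and among the 265 of these with a mean of at least 1 in 17 (6.42%). The 3 were AT5G06790 (0.95 to 1.20), AT3G52070 (0.895 to 1.21) and AT2G46300 (0.85 to 1.18). In AT2G46300 the narrow interval came after the partner samples 2.78 and 0.933 had been averaged. In 18 members the interval reached 1.5-fold or more in at least 1 direction, and in 35 it stayed within 0.5 and 2. The widest was that of AT1G35510 (0.62 to 2.35) and the narrowest that of AT4G27250 (1.10 to 1.34), which does not include 1. A mean ratio near 1 therefore does not show that a transcript held steady between the groups, and for most members a ratio outside the window lies within the interval. The count was 4 with the pair number as a replicate block and ran from 0 to 4 when 1 replicate was left out, with 0 without PSII_DCMU replicate 3 and 1 without PSI replicate 2. It was 1 with the dimmest 10% of features left out of the fit.

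**Figure D4:**
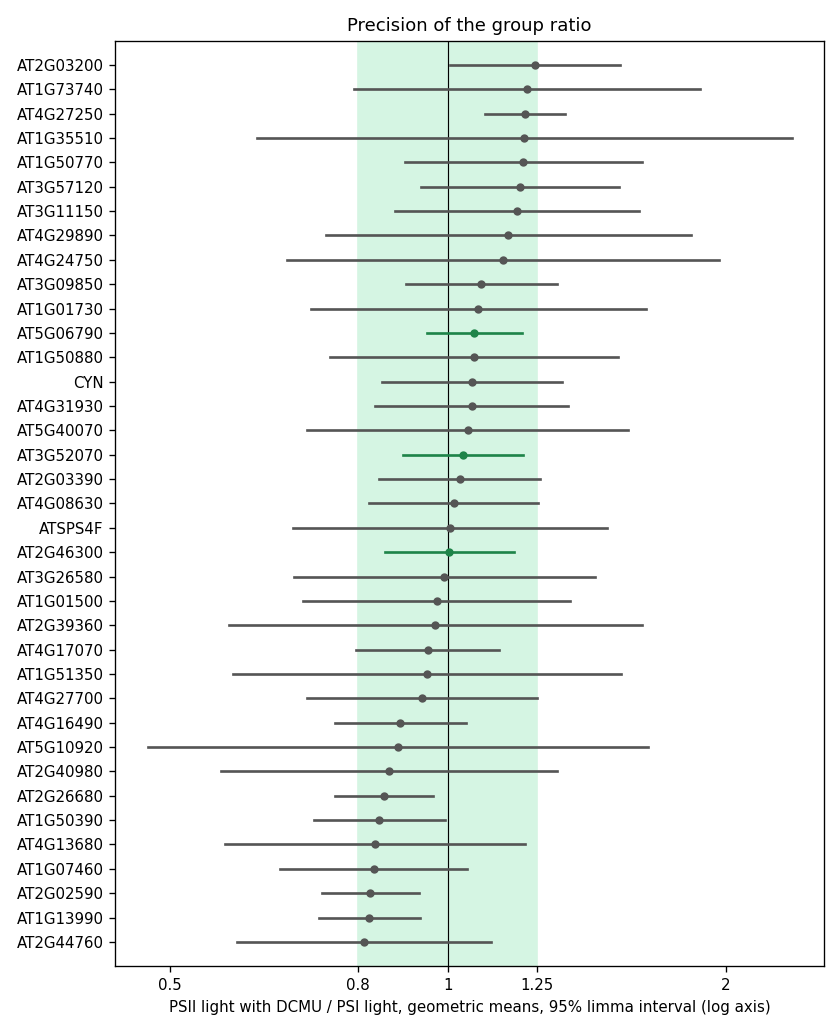
Ratio of geometric means, PSII light with DCMU over PSI light, of each member (points) with its 95% limma interval (lines, n = 3 replicates a group) on a log axis, with the window from 0.8 to 1/0.8 shaded. The 3 members with the whole interval inside the window are green, and the widest interval is that of AT1G35510 (0.62 to 2.35).

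In the same fit 48.5% of all features passed an adjusted p of 0.05 (Benjamini-Hochberg) for a difference between the groups, 26.4% higher under PSII light with DCMU and 22.0% lower. Among the members 4 did, and in 6 all replicates of one group lay above those of the other, against 60.9% of all features. The rule used this contrast and fixed these low counts in large part, so nothing is read from them.

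Replicates of the same pair number deviated alike in both groups, so the group ratio can be split by pair. The pair ratios are parts of the ratio that the rule used and describe how evenly it was made up. They lay inside the ratio window for all 3 pairs in 9 members (24.3%), against 37.2% of all 1070 features within the window. The 9 were AT4G17070, CYN, AT2G46300, AT2G26680, AT5G06790, AT4G16490, AT2G03390, AT4G08630 and AT3G52070. AT5G06790 had pair ratios of 1.05, 1.08 and 1.05. In 23 members the pair ratios lay on both sides of 1, in 6 all were above it and in 8 all under it. The pair number itself was not used by the rule. An F test of it with the group as a covariate (limma, Benjamini-Hochberg) called 0 of 37 members and 0 of all features (0%). At an unadjusted p of 0.05 it passed in 1 member, AT5G10920, and in 403 features, or 11.7%. The mean of the first pair was the highest of the 3 in 20 members (56.8%, against 42.7% of all features) and that of the third in 6 (16.2%, against 22.9%). The second pair was highest in 27.0% of the members and 34.3% of all features, so by this count the order of the pairs was the same in both. By the lowest mean the members gave another order, with the second pair lowest in 17, the third in 13 and the first in 7. Shares over all features are not given for the lowest mean, so nothing is read from this order.

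Other treatments of the values moved the members out of the window in different directions. After quantile normalization of the 12 samples 28 of the 37 ratios lay within it and 9 above it, and the highest was 1.41 (AT3G57120). With each sample scaled to the same median 26 lay within it and 11 under it, and the lowest was 0.69 (AT2G44760). The median ratio of the members went from 1.01 to 1.11 after quantile normalization and to 0.87 after median scaling, and the number above 1 from 19 to 29 and to 6. Over all features the median change was 0.04 on the log2 scale as deposited, -0.05 after quantile normalization and -0.09 after median scaling. The direction of a member with a ratio near 1 thus depended on the scaling.

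The place of a feature in the order of feature numbers also went with the ratios. Feature numbers were cut into runs of equal length, and the place is the position in a run. Over all features the median log2 change was -0.31 for places 1 to 96, 0.42 for places 97 to 192 and 0.16 for later places. Of the members 21, 6 and 10 lay in these ranges. Places 1 to 96 thus held 56.8% of the members, near the 55.9% of all named features with a mean of at least 1. Among the members the median log2 change was -0.01, 0.25 and 0.01 at the 3 ranges. With the median of each place taken out of every replicate, 20 of the 37 ratios (of geometric means) stayed within the window, 9 lay above it and 8 under it, from 0.53 (AT1G50880) to 1.70 (AT3G11150). Each place median rests on a median of 13 features, so these values carry an error of their own.

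**Figure D5:**
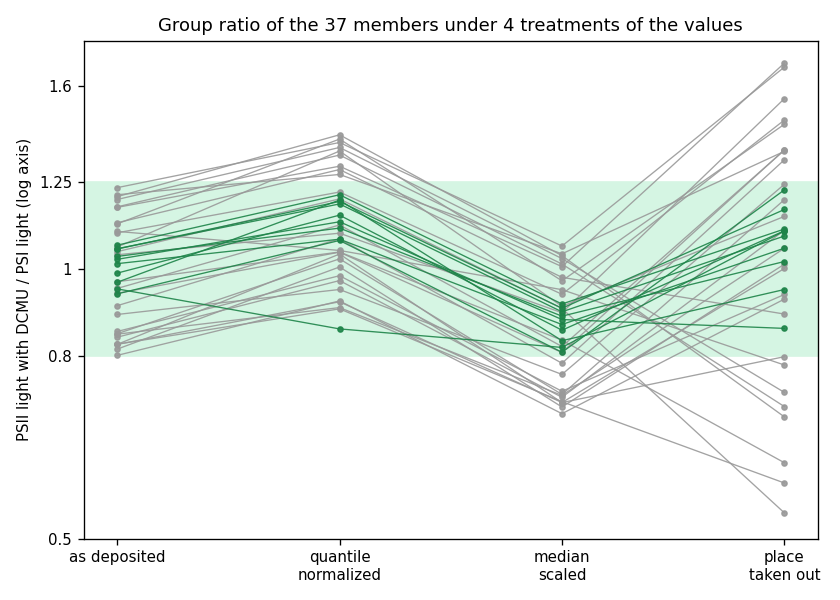
Ratio of PSII light with DCMU over PSI light (y axis, log scale) of the 37 members with the values as deposited, quantile normalized, median scaled and with place taken out, with the window from 0.8 to 1/0.8 shaded. The 10 members that lie within the window in all 4 are green, and the others spread from 0.53 to 1.70 with place taken out. Ratios with place taken out are of geometric means, and the others are of arithmetic means.

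In 10 members the ratio lay inside the window under all 4 treatments, with geometric means used only where place was taken out. They were the peptidyl-prolyl isomerase gene AT4G17070 (0.82 to 1.10 over the 4), the sucrose phosphate synthase gene ATSPS4F (0.85 to 1.15), AT3G26580 with tetratricopeptide repeats (0.83 to 1.19), the protein kinase gene AT2G39360 (0.81 to 1.22), AT4G31930 of a mitochondrial glycoprotein family (0.90 to 1.19), AT2G03390 with a uvrB/uvrC motif (0.89 to 1.11), AT5G06790 (0.91 to 1.21), AT1G01730 (0.90 to 1.18), AT5G40070 (0.86 to 1.13) and AT4G08630 (0.87 to 1.08). Of these 10, AT4G17070, AT2G03390, AT5G06790 and AT4G08630 were also among the 9 with every pair ratio inside the window.

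Genes often used as constant references in Arabidopsis were nearly absent from the named features, with 1 of 32 measured and none among the members. AT2G28390, a SAND family gene that serves as such a reference, had a mean of 0.88 and so fell short of the rule. It went from 0.699 ± 0.081 under PSI light to 1.06 ± 0.078 under PSII light with DCMU (SD, n = 3) and rose by 0.61 ± 0.109 on the log2 scale (adjusted p = 0.010, limma). All replicates of one group lay above all of the other, and the rise passed the threshold under all 13 alternatives run, from 0.39 with median scaling to 0.71 without PSI replicate 2. Of 31 genes of plastid carbon metabolism 2 were measured (SBPASE and PRK) and both rose, and of 29 genes of redox enzymes and antioxidants 4 were measured, of which 2 rose and 1 fell, against the 26.4% of all features that rose and 22.0% that fell. Neither list gave a member, and 5 of these 6 genes had a mean under 1. None of 90 genes of plastid protein folding, import and proteolysis, listed by gene symbol, was measured by a named feature. That list was not complete. It missed at least Cpn60beta4, by its symbol a chaperonin gene. Cpn60beta4 had means of 0.118 under PSI light and 0.391 under PSII light with DCMU and was no member.

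The members came from all 5 nuclear chromosomes, with 10 on chromosome 1, 8 on chromosome 2, 6 on chromosome 3, 10 on chromosome 4 and 3 on chromosome 5. Chromosome 4 held 27.0% of the members and 17.3% of the named features, and chromosome 5 held 8.11% and 20.7%, which are descriptions of 37 genes and were not tested.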

How the data were processed

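The authors deposited 1 linear intensity for each of 3439 features in each of 12 samples, ranging from 0 to 100. The sources used here do not give how the arrays were scanned, corrected or scaled. Values under the 1st percentile of positive intensities (0.0431), 4.74% of all, were set to it before log2 for the fits. No member had a value that low. Of 692 features with 1 gene, 690 matched the reference gene table (TAIR10.1) by gene identifier. A feature can detect related genes, and probe, promoter and protein sequences were not used here.

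Partner samples correlated at 0.38 to 0.66 in deviations from the group means, others of a group at -0.51 to -0.18, and all 12 correlated best with their partner, so partners were averaged. Same-numbered replicates of the 2 groups correlated at 0.29 to 0.36, which pairs them by number, from the data and the titles. Fits used limma 3.58.1 in R 4.3.3, and tables and plots used Python 3.11.15 with matplotlib 3.10.9. Tests were two-sided, with Benjamini-Hochberg adjustment over 3439 features at 0.05. The fits were also run on simulated data with independent replicates, which leaves out the correlation of same-numbered replicates and so does not settle the error rate here. Intensities are given as group means ± SD over 3 replicates.

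The members, lists and alternatives were chosen with earlier results of these data known. Named with samples were the 10 brightest members, the 5 with the ratio nearest 1, the 5 with the lowest and the 5 with the highest CV over the 12 samples, and the 5 with the smallest p for the pair number. Those next to the edges of the rule were named with the mean or ratio the rule used. Others, given by role, were picked for description after their values were seen.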

Additional observations from a re-analysis of the deposited data

Results flagged for a closer look

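Of 74 groups of 6 samples (37 members in 2 groups), 4 held a sample whose gap to its nearest neighbour was a large part of the whole range (Dixon's test). Chance gives about 1 such group in 20 where the 6 samples are independent, and these were correlated in partners, so the rate here is not known. AT2G02590 stood at 1.04 in sample 5 under PSII light with DCMU, against 1.17 to 1.20 in the other 5. AT4G17070 stood at 20.6 in the same sample, against 16.1 to 17.7. AT5G06790 was high in sample 1 of both groups, at 1.63 under PSI light against 1.16 to 1.32, and at 1.56 under PSII light with DCMU against 1.32 to 1.38. The partner samples 2 of AT5G06790 did not share these values (1.16 and 1.38).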

How the results depend on the processing

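All 37 members met the rule with the ratio of geometric means, 32 with the ratio of medians, 28 after quantile normalization, 26 after median scaling and 30 to 36 when 1 replicate was left out. Fewer met it with a mean of at least 2 (7), a ratio from 0.9 to 1/0.9 (19) or place taken out (20). Before genes were left out by class the rule gave 45 genes, and 136 with a mean of at least 0.5, 9 with at least 2, 23 with the narrower ratio and 44 to 52 without 1 replicate. It gave 55 after quantile normalization, 40 after median scaling and 63 with place taken out. Of these, 21, 8 and 38 genes were new to the set, so these settings also brought other genes in. The new genes were not fully screened by class, so these counts may hold genes of the left-out classes. The 95% interval lay inside the window in 3 members, in 6 with a pseudocount of 0.139, in 5 after quantile normalization and in 0 to 4 without 1 replicate. The 1667 features called between the groups were 1138 to 1685 without 1 replicate and 1656 with the pair number as a replicate block, and the block left the call of AT2G28390 in place. Counts before the class exclusions, place taken out of the limma counts, the alternatives for AT2G28390 and HEMA3 kept were added after the data were seen. The pair number called 0 features under every scaling and floor run. The planned search of promoter motifs was not run. The scale and background of the intensities are unknown, so no limit of detection is given.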
